A study of Mus musculus with 12 samples.

Results

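Accessible chromatin domains that were present in embryoid bodies (EBs), were still present in motor neuron progenitors and were gone from every day 4 list are described here. They are called closed domains. Mouse embryonic stem cells were differentiated as EBs, aggregates of cells in suspension, and patterned with SAG (0.5 µM), a Hedgehog agonist, and retinoic acid (RA, 1 µM). Open DNA was read by ATAC-seq, in which a transposase cuts and tags DNA that is not tightly packed. The 12 samples formed 6 groups of 2. The EB group was taken before patterning and the progenitor group 2 days into it, and both were of the parental line Ainv15(iCre). Another 4 groups were taken at day 4. The no Dox control at day 4 came from the line Ainv15(iFlag.Hoxc6) without doxycycline (Dox). The induced groups iHoxc6, iHoxc9 and iHoxc10 came from Ainv15(iFlag.Hoxc6), Ainv15(iFlag.Hoxc9) and Ainv15(iFlag.Hoxc10), in which Dox (3 µg/mL) switched on a Flag-tagged Hox gene for the last 48 h. All day 4 groups had also received RA and SAG.

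The authors deposited 1 list of domain coordinates per group, made from both replicates. Single replicates therefore have no values here, no error between replicates could be given, no test was run over samples, and read depth is unknown. Shares are given with 95% Wilson intervals and differences between shares with 95% Newcombe intervals. Both cover only the counting of domains, which are not fully independent of their neighbours.

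The 6 lists held 482514 domains on chromosomes 1 to 19, X and Y. Of 87916 progenitor domains, 41544 were 150 bp or wider, and 26125 of these overlapped an EB domain by at least 1 bp. Closed domains were chosen by their absence from all day 4 lists, so that this absence is the selection and not a finding. The rule gave 840 domains, 3.22% of the 26125 (3.01% to 3.44%). By contrast, 20685 domains (79.2%) overlapped a domain in all 4 day 4 lists and are called kept, and 4600 were held by 1 to 3 day 4 lists. For further comparison, 3340 progenitor domains of at least 150 bp were in no other list (transient domains) and 10978 EB domains of that width were in no other list (EB-only domains).

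Absence from a list means that no domain was called there. In these bulk cultures, loss of cells with an open site and loss of openness in each cell cannot be told apart. Neither can day 4 and cell line, since no day 4 group came from the parental line. The promoters of 17 marker genes were checked against the labels. The promoter of a gene was all sequence within 1 kb of any of its annotated transcription starts. Pou5f1 and Nanog, genes of the pluripotency network, had promoter domains in EBs only. Of the other 2 pluripotency markers, Zfp42 had them in EBs and progenitors, while Esrrb had them in all 6 lists, with 853 bp in EBs, 365 bp in progenitors and 223 to 451 bp at day 4. Olig2, a gene of motor neuron progenitors, had 232 bp of promoter domain in EBs, 978 bp in progenitors and 541 to 1366 bp in the day 4 lists. Of the other neural progenitor markers, Sox1 had 752 bp in EBs and 905 to 1389 bp in the later lists. Nkx6-1 had 1158 bp in EBs and 1368 to 1956 bp later. Pax6 had 2098 bp in EBs, 3727 bp in progenitors and 1411 bp (iHoxc9) to 3744 bp (no Dox) at day 4. Mnx1 and Isl1, motor neuron genes, had promoter domains in all 6 lists, EBs included, so their promoters did not separate the stages. Promoter domains of Lhx3 and Chat, also motor neuron genes, covered less at day 4 than in EBs. At Lhx3 they covered 592 bp in EBs and 134 to 419 bp at day 4, and at Chat 999 bp and 0 to 570 bp. Of 5 mesoderm and endoderm genes, Foxa2, Sox17, Gata4 and Gata6 had promoter domains in all 6 lists, and T (Brachyury) in EBs and progenitors.

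Pluripotent cells are held in their state by transcription factors such as OCT4 (gene Pou5f1), SOX2 and NANOG, which bind enhancers together, OCT4 and SOX2 often side by side on a joint motif. When RA drives cells towards neural fates, this network is shut down, and enhancers that depend on it lose accessibility. Naive pluripotency genes mark the earliest state, and genes such as Otx2 and Fgf5 the primed state that follows.

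Sequences of 6 closed domains, read from GRCm38.p6 on the plus strand, are shown because they carry the motifs or lie at the pluripotency genes described further on. Capitals mark matches on either strand to the POU octamer ATGCAAAT, the SOX core ACAATG, the joint SOX-POU motif (TTGT, 1 base of any kind, then ATGCAAA), the ZIC motif CAGCAGG, the KLF box GGGNGTGG, the GRHL motif AACCNGTT, the NFY box CCAATCA and the SP box GGGCGGG. The joint motif shares letters with the octamer, and KLF and SP boxes can overlap. Over the 40443 windows of 150 bp in all compared sets, a match was found in 1.79% for the octamer, 8.57% for the SOX core, 0.0816% for the joint motif, 9.13% for ZIC, 7.65% for KLF, 1.34% for GRHL, 4.16% for NFY and 13.2% for SP. A match is a description of the letters and not a binding site.
Nr5a2, chr1:137173998-137174297: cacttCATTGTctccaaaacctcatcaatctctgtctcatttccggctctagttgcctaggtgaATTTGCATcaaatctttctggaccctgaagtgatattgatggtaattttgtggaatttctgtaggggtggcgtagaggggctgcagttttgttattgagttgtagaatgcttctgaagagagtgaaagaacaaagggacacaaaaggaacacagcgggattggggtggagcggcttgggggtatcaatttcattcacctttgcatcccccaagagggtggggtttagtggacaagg
Pla2g1b, chr5:115464859-115465150: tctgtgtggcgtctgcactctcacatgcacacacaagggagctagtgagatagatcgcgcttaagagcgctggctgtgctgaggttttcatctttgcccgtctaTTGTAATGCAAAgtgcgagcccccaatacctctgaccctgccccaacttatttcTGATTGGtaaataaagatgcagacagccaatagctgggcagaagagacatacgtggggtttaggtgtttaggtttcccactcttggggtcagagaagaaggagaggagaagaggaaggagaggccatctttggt
Tbx3, chr5:119706587-119706886: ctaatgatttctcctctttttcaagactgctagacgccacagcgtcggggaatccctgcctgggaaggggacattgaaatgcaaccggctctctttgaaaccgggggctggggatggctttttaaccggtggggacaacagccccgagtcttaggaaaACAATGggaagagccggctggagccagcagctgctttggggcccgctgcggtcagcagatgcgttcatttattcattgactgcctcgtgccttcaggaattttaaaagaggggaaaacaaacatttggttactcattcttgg
Zfp42, chr8:43307014-43307194: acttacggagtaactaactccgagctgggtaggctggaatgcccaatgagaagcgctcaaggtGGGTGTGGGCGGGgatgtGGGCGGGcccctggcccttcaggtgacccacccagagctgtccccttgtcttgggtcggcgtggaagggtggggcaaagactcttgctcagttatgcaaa
Fgf4, chr7:144861226-144861385: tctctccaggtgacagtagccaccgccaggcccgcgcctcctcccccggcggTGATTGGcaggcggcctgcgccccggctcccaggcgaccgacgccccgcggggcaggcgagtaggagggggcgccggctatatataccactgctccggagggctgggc
Nanog, chr6:122702502-122702801: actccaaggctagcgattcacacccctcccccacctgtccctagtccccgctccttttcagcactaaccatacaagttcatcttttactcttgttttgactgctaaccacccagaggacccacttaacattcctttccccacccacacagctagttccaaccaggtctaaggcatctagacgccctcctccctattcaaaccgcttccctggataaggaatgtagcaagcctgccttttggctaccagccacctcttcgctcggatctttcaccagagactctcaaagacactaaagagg

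The shares above are for windows of 150 bp, while the stretches shown are up to 300 bp long. The stretch nearest to Nr5a2, which encodes an orphan nuclear receptor, holds an octamer and a SOX core near its start. Both lie outside the central 150 bp of the domain and are not counted in the shares below. The domain nearest to Pla2g1b holds a joint SOX-POU match and an NFY box, and was chosen after the match was seen. The Tbx3 stretch holds a SOX core. The Zfp42 domain, at a promoter, holds overlapping KLF and SP boxes and another SP box. The Fgf4 stretch holds an NFY box, and the Nanog stretch holds none of the 8 motifs. Among stretches read at other pluripotency genes and not shown, that at Utf1 holds an SP box, and those at Trim71 and Gbx2 hold none of the 8.

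Closed domains were narrow. Their width had a median of 234 bp (quartiles 183 and 296 bp, widest 1265 bp), against 672 bp for kept domains, 234 bp for transient domains and 248 bp for EB-only domains. The closed share was highest under 300 bp and fell beyond. It was 9.23% of domains of 150 to 199 bp (8.26% to 10.3%), 10.6% at 200 to 299 bp (9.57% to 11.7%), 3.06% at 300 to 499 bp (2.64% to 3.54%) and 0.206% at 500 bp or wider (0.144% to 0.296%). Only 29 of 14068 domains of the widest class were closed. The main comparisons of shares and means with kept domains are therefore also given at equal width, by weighting kept domains to the 4 width classes of the closed ones.

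**Figure D1:**
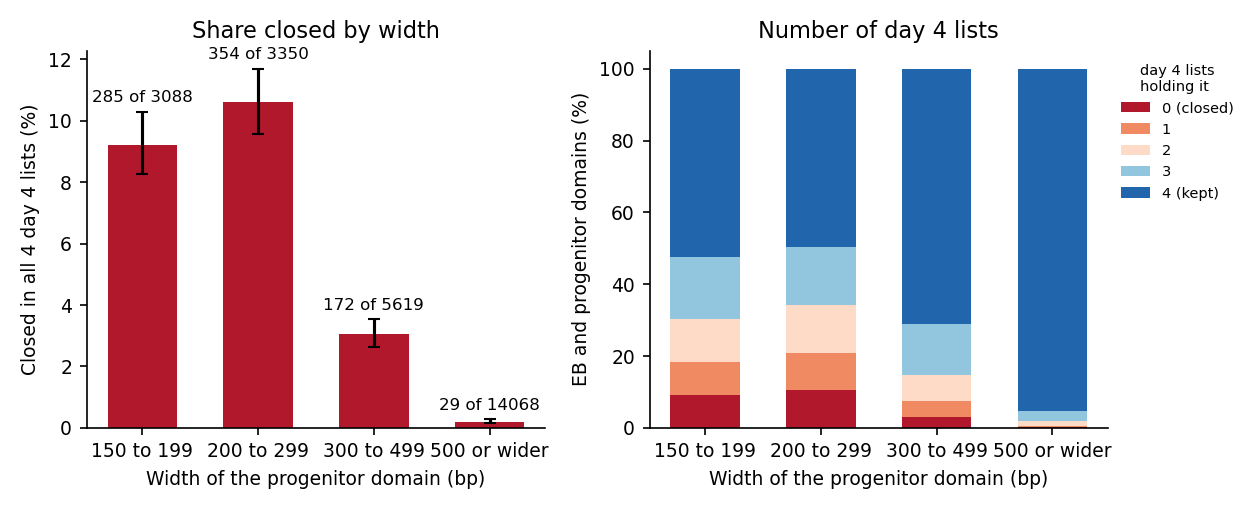
Left, share of EB and progenitor domains closed in all 4 day 4 lists, in percent, by width in bp, with 95% Wilson intervals and counts. Right, the same width classes split by the number of day 4 lists that held the domain. The closed share is near 10% below 300 bp and 0.206% at 500 bp or wider.

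The threshold of 150 bp cut through many similar domains. There were 10 closed domains of 150 to 154 bp, while 50 progenitor domains of 145 to 149 bp met the rest of the rule. Another 648 domains were left out because of day 4 domains that overlapped them by at most 50 bp. Without a minimum width the rule gave 4162 domains, with a minimum of 300 bp 201, and with day 4 domains under 150 bp ignored 2529. Leaving out the no Dox list gave 1262.

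Each closed domain was matched to the EB domain of largest overlap, which gave 839 distinct EB domains. Of the closed domains, 9 overlapped 2 or more EB domains. The matched EB domain had a median width of 228 bp (quartiles 104 and 387 bp). It was wider than the progenitor domain in 399 of 840 cases (47.5%, 44.1% to 50.9%). Among kept domains this was so in 27.4%, and in 45.1% at equal width, which lies within the interval of the closed domains. The EB domain was under 50 bp in 130 cases (15.5%), against 3.29% of kept domains and 6.66% of them at equal width. Of the EB domains themselves, 59 (7.02%) touched a day 4 domain elsewhere along their length.

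Closed domains differed in how far they lay from the nearest remaining opening. The gap to the nearest domain of any day 4 list had a median of 3469.5 bp. It was at most 500 bp for 171 closed domains (20.4%, 17.8% to 23.2%) and over 5 kb for 333. At most 50 bp separated 43 of them from a day 4 domain, so that for these the loss could not be set apart from a shifted edge. By list, the median gap was 5559 bp for no Dox, 5410.5 bp for iHoxc6, 9006.5 bp for iHoxc9 and 9112 bp for iHoxc10, and the last 2 lists were also the shortest, with 63504 and 56232 domains against 88806 and 91181.

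Some domains just missed the rule. Of 934 domains held by 1 day 4 list, 422 were held by no Dox, 367 by iHoxc6, 80 by iHoxc9 and 65 by iHoxc10. The part of list length, calling settings and Hox induction in these numbers was not tested.

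Closed domains lay mostly away from promoters. Within 1 kb of a transcription start site (TSS) of a protein-coding gene were 135 of 840 (16.1%, 13.7% to 18.7%), in exons 83 (9.88%), in introns 307 (36.5%) and between genes 315 (37.5%). The median distance to the nearest TSS was 14018 bp. Of kept domains 62.6% lay at promoters, with a median TSS distance of 212 bp, and the closed share differed from this by -46.5 percentage points (-48.9 to -43.8). At equal width the promoter share of kept domains was 25.8%. Within the width classes it was 12.3% of closed and 12.2% of kept domains at 150 to 199 bp, 18.1% and 26.5% at 200 to 299 bp, 16.9% and 37.3% at 300 to 499 bp, and 24.1% and 80.7% at 500 bp or wider. The narrowest closed and kept domains thus had nearly the same promoter share, and the gap opened with width. EB-only domains (8.34%) and transient domains (5.27%) lay at promoters less often than closed domains, with intervals that did not meet. With a promoter of 5 kb on each side the closed share was 32.3%.

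**Figure D2:**
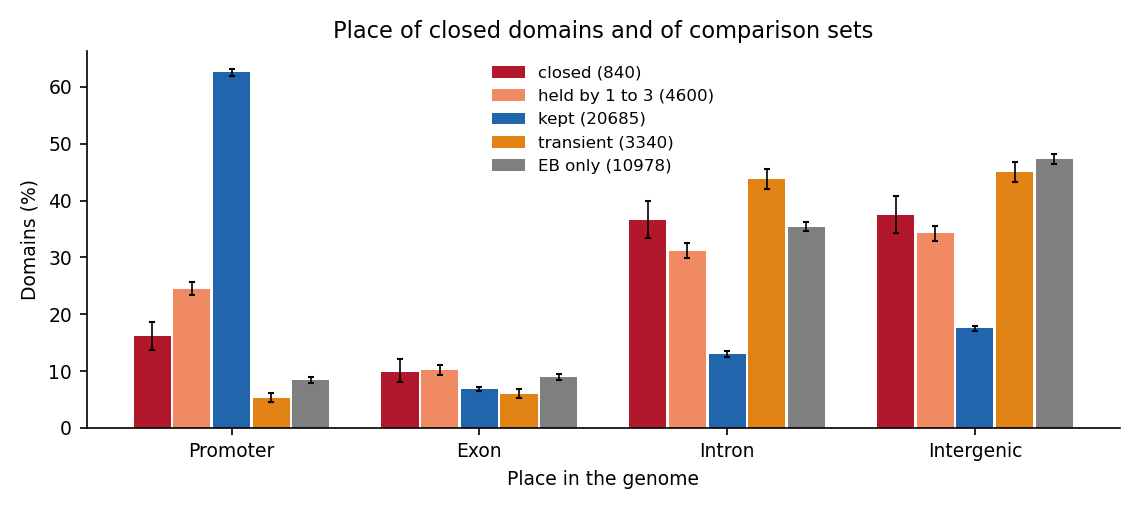
Share of domains in percent, with 95% Wilson intervals, at promoters (within 1 kb of a TSS), in exons, in introns and between genes, for closed domains and the 4 comparison sets with their numbers. Closed domains have 16.1% at promoters, between transient domains at 5.27% and kept domains at 62.6%.

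In base composition, closed domains stood between transient and kept ones. The GC content of the central 150 bp had a median of 52.0% (quartiles 46.0% and 58.0%), against 62.7% in kept, 44.0% in transient and 50.7% in EB-only domains. At equal width the mean was 52.4% in closed and 55.5% in kept domains, and the difference of the medians, closed minus kept, was -10.7 points over all domains and -2.67 points away from promoters. Closed windows held a mean of 3.56 CpG against 10.6 in kept ones and 5.44 at equal width. More than 50% of the window was repeat-masked in 8.10% of closed domains (6.44% to 10.1%), in 2.05% of kept domains (3.57% at equal width), in 5.09% of transient and in 23.3% of EB-only domains.

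The octamer was found in 29 of 840 closed windows (3.45%, 2.41% to 4.91%) and in 0.967% of kept windows. This motif is bound by POU factors, OCT4 among them. The difference was 2.49 percentage points (1.44 to 3.95). It was 1.83 points away from promoters (0.652 to 3.49), 1.73 points with kept windows weighted to the GC content of the closed ones, and 2.06 points at equal width. Transient windows held it in 0.958%, 2.49 points below closed windows (1.38 to 3.98), or 2.88 points with GC content weighted. EB-only windows held it in 3.48%, and the difference of -0.0273 points had an interval from -1.13 to 1.47. The octamer share was thus that of EB-only domains within its interval, and above that of transient, kept and partly held domains (1.78%, difference 1.67 points, 0.548 to 3.17). The difference from kept domains was smaller, at 1.10 points, with a minimum width of 300 bp, 1.20 points with day 4 domains under 150 bp ignored and 1.19 points over whole domains.

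The SOX core was found in 12.4% of closed windows, 4.88% of kept windows and 23.1% of transient windows. SOX factors serve both pluripotent cells and neural progenitors. Closed windows exceeded kept ones by 7.50 points (5.42 to 9.92, 4.03 with GC content weighted and 5.41 at equal width) while the difference from transient ones was -10.7 points (-13.3 to -7.96, -5.93 with GC content weighted). Both the octamer and the SOX core were present in 3 closed windows, and at least 1 of them in 130 (15.5%, 13.2% to 18.1%), against 5.74% of kept windows. The joint SOX-POU motif, at 2 of 840 windows, was too rare for a comparison. For the KLF, ESRRB and STAT motifs the interval of closed minus kept held 0. The KLF box was found in 8.21% of closed and 8.79% of kept windows (-0.575 points, -2.29 to 1.51). Its difference was 2.30 points with GC content weighted and 1.37 at equal width. The ESRRB motif TCAAGGTCA (1 closed window) and the STAT motif TTCCNGGAA (4) were also rare, with 0.119% against 0.0870% and 0.476% against 0.479%.

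Among the other motifs with the largest differences from kept domains, the SP box was the only 1 of 8 with a lower share in closed windows. It was found in 9.52% of closed and 20.9% of kept windows, a difference of -11.3 points (-13.2 to -9.10), which was -0.288 points with GC content weighted and -0.348 points at equal width. TEAD, for the effectors of Hippo signalling (GGAATG), was found in 10.7% and 5.70% (5.01 points, 3.07 to 7.30), with 2.88 points after GC weighting and 3.39 at equal width. AGGTCA, the core read by NR5A factors and RA receptors, was found in 10.6% and 6.20% (4.39 points, 2.46 to 6.68), with 2.67 and 2.33 points in the same order. ZIC was found in 11.3% and 7.53% (3.78 points, 1.78 to 6.13). Its difference was 3.90 points with GC content weighted, 2.13 points away from promoters with an interval that held 0 (-0.173 to 4.82), and turned to -0.523 points at equal width. The E-box CAGATG, read by NEUROD factors, was found in 10.8% and 7.58% (3.26 points, 1.30 to 5.57), with 0.380 points after GC weighting and a turn to -2.04 points at equal width. AP-1 (TGANTCA), read by FOS and JUN factors, was found in 5.24% and 2.27% (2.97 points, 1.64 to 4.70), with 1.76 points after GC weighting and 1.83 at equal width.

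Over all 30 motifs, the interval of closed minus kept lay above 0 for 17, below 0 for 3 and held 0 for 10. Away from promoters these counts were 11, 2 and 17. Of the 17 motifs above 0, ZIC and the E-boxes CAGATG and CATATG turned below 0 at equal width, and CATATG and the posterior Hox motif TTTATNG with GC content weighted. At equal width the largest difference in the other direction was that of the CTCF core CCANNAGGG, the motif of the insulator factor, at 5.00% of closed and 8.85% of kept windows (-3.85 points, with no interval). Intervals were not adjusted for the number of motifs. Against EB-only domains 26 of 30 intervals held 0 and the median absolute difference was 0.423 points, while against transient domains 13 of 30 held 0 and the median was 1.52 points (0.364 and 1.02 points with GC content weighted). In motif content the closed domains thus lay nearer to domains open in EBs alone than to domains open in progenitors alone. This was not particular to EB-only domains. Against partly held domains 25 of 30 intervals held 0 and the median absolute difference was 0.570 points. The 4 exceptions against EB-only domains were the SP box (5.49 points, 3.64 to 7.69), the longer SOX motif AACAATGG (0.903 points, 0.117 to 2.11), the E-box CAGATG (-2.56 points, -4.59 to -0.190) and YY1 (AAGATGGC, -0.955 points, -1.28 to -0.239).

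Closed windows exceeded transient windows most for the SP box, at 8.09 points (6.22 to 10.3). ZIC followed at 6.49 points (4.37 to 8.91) and the KLF box at 5.13 points (3.34 to 7.25). These differences kept their direction with GC content weighted. Smaller excesses that also did so included that of NFY (5.95% against 2.19%, 3.77 points, 2.25 to 5.63). GRHL was among them (2.02% against 0.898%, 1.13 points, 0.279 to 2.35). NFY is a general promoter and enhancer factor, and GRHL factors act in epithelia and in the exit from the naive state. Less often in closed windows were GATA (5.24% against 10.7%, -5.51 points, -7.22 to -3.52, and -1.83 with GC content weighted) and ONECUT (ATCAATC), which is read by factors of early neurons (0.952% against 3.26%, -2.31 points, -3.12 to -1.24, and -1.01 with GC content weighted). TEAD (10.7% against 14.5%, -3.81 points, -6.09 to -1.26) and AGGTCA (10.6% against 13.3%, -2.73 points, -4.98 to -0.207) were likewise lower in closed windows. With GC content weighted the differences of TEAD and AGGTCA were -5.00 and -3.14 points. The homeodomain core TAATTA differed by -3.04 points (-4.41 to -1.38), but by -0.0933 points once GC content was weighted.

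**Figure D3:**
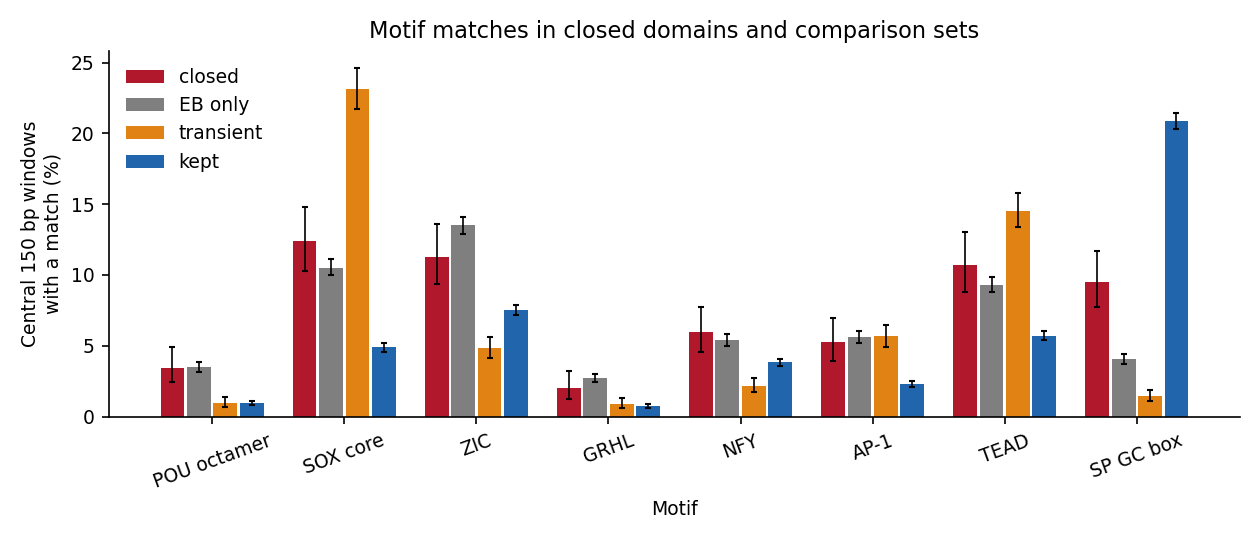
Share of central 150 bp windows with a match to 8 motifs, in percent with 95% Wilson intervals, in closed, EB-only, transient and kept domains. The POU octamer stands at 3.45% in closed and 3.48% in EB-only windows and under 1% in the other sets, and the SOX core is highest in transient windows at 23.1%.

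Several genes of the pluripotency network had closed domains nearby. Each domain was given to the protein-coding gene with the nearest TSS, and 783 of 21911 genes (3.57%) had at least 1 closed domain. Of the 40 genes of a general and a naive pluripotency list, 9 did (22.5%, 12.3% to 37.5%). Counted by domains, 11 of the 96 EB and progenitor domains of these genes were closed (11.5%, 6.52% to 19.4%), and all 11 were under 500 bp, where 11 of 58 were closed (19.0%, 10.9% to 30.9%) against 811 of all 12057 (6.73%, 6.29% to 7.19%). The 9 genes became 17 without a minimum width and 4 with a minimum of 300 bp. All gene lists were chosen with earlier results of these data known, and the intervals do not cover that choice.

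The general list had 5 genes with closed domains, Nanog, Utf1, Fgf4, Tdgf1 and Trim71, with 6 domains of 49. The naive list had 4, Tbx3, Nr5a2, Zfp42 and Gbx2, with 5 domains of 47. Of the primed list, which holds Otx2 and Fgf5, none of 17 genes and none of 43 domains was closed, with an upper bound of 8.20%, and 35 of the 43 were kept. Only 17 of the 43 were under 500 bp, where the upper bound was 18.4%, so a share like that of the naive list under 500 bp (17.2%) lay within it.

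**Figure D4:**
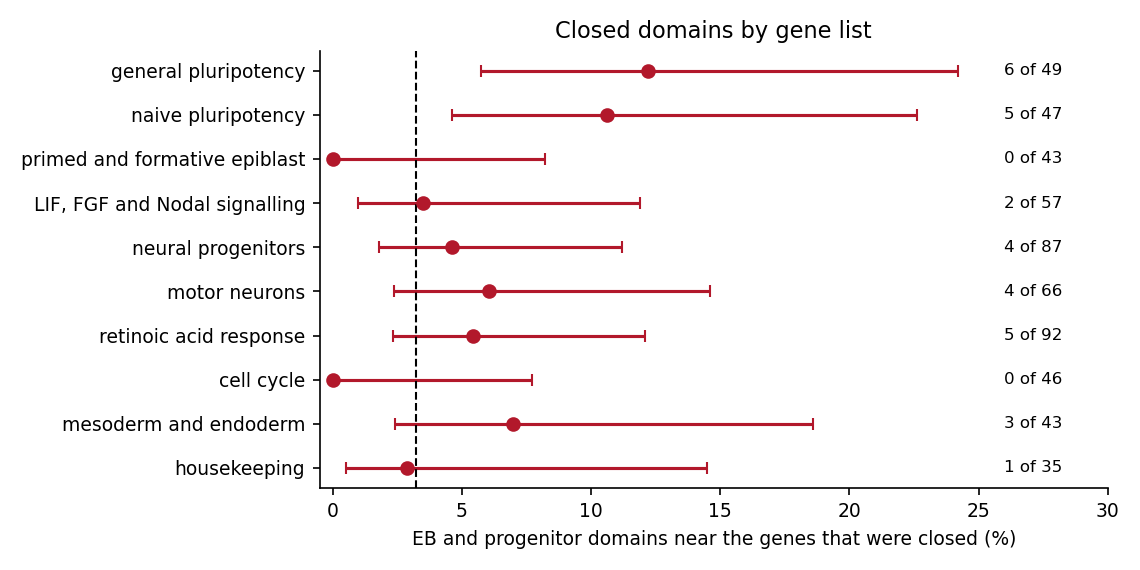
Share of the EB and progenitor domains nearest to the genes of each list that were closed, in percent, with 95% Wilson intervals and counts at the right. The dashed line is the share over all such domains, 3.22%, and the general and naive pluripotency intervals lie above it.

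At Zfp42 (Rex1), a marker of naive cells, the closed domain lay on the promoter, at chr8:43307014-43307194 (181 bp, 124 bp from the TSS). Domains covered 423 bp of the promoter in EBs, 181 bp in progenitors and 0 bp in each day 4 list. Fgf4, a growth factor gene that OCT4 and SOX2 control, had 717 bp in EBs, 277 bp in progenitors and 0 bp in each day 4 list, with the closed domain at chr7:144861226-144861451 (226 bp, 47 bp from the TSS). Tdgf1, which encodes a Nodal co-receptor, had 230, 166 and 0 bp in the same order, and its closed domain at chr9:110944431-110944596 (166 bp) met an EB domain of only 44 bp. All 3 promoters were thus without a domain in every day 4 list.

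At Nanog the promoter and the closed domain parted. Domains covered 623 bp of its promoter in EBs and 0 bp in progenitors and all day 4 lists. The closed domain, at chr6:122702462-122702842 (381 bp), lay 4.84 kb from the TSS between genes and was matched by an EB domain of 613 bp. The nearest day 4 domain was 6.94 kb away, in iHoxc9. The promoter domain of Nanog was thus gone by the progenitor stage, while the upstream domain was still listed.

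**Figure D5:**
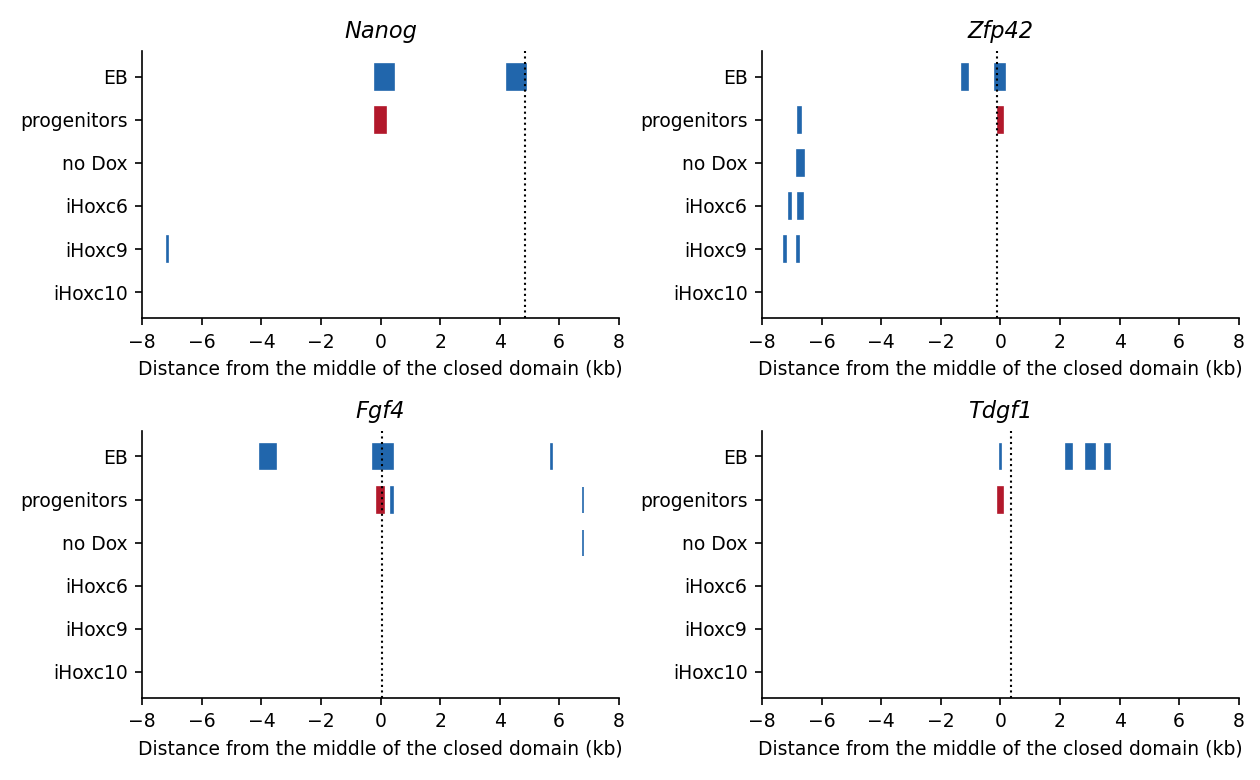
Domains of the 6 lists (rows) within 8 kb of the middle of the closed domain, in kb along the plus strand, at Nanog, Zfp42, Fgf4 and Tdgf1. Red marks the closed domain, blue the other domains and the dotted line the nearest TSS. At Nanog the EB list has 2 domains, progenitors 1 and the day 4 lists at most 1, a distant one of 40 bp in iHoxc9.

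The other pluripotency genes with closed domains had promoter domains in all 4 day 4 lists, except Utf1 in iHoxc9. Utf1, a chromatin factor of pluripotent cells, had 1090 bp of promoter domain in EBs, 198 bp in progenitors, and 258, 72, 0 and 69 bp at day 4 (the control, then the Hoxc6, Hoxc9 and Hoxc10 lines). Its closed domain (chr7:139950374-139950843, 470 bp) lay 6.82 kb from the TSS in an exon of Gm16201, and the nearest day 4 domain was 303 bp away. Tbx3 and Nr5a2, both naive factors, had promoter domains in all 6 lists, with closed domains 26.5 kb and 214 kb from their TSS. At Nr5a2, chr1:137173927-137174368 (442 bp) was 31.8 kb from any day 4 domain. Trim71, which encodes an RNA-binding protein of early embryos, had 2 closed intronic domains, of 155 and 186 bp, beside a promoter covered by 1065 to 1583 bp in every list, and 76.0% of the central window of the wider domain was repeat-masked. Gbx2, active in naive cells and in the neural plate, had 2, of which the nearer lay 1.80 kb from its TSS and 77 bp from an iHoxc6 domain.

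By genes with at least 1 closed domain, lists of other programmes were also above the 3.57% of all genes. RA response genes had 5 of 20 (25.0%, 11.2% to 46.9%), motor neuron genes 3 of 20 (5.24% to 36.0%), mesoderm and endoderm genes 3 of 20 (5.24% to 36.0%), neural progenitor genes 3 of 21 (14.3%, 4.98% to 34.6%) and LIF, FGF and Nodal signalling genes 2 of 21 (9.52%, 2.65% to 28.9%). Counted by domains, in neural progenitor genes 4 of 87 domains were closed (4.60%, 1.80% to 11.2%), in motor neuron genes 4 of 66 (6.06%, 2.38% to 14.6%), in RA response genes 5 of 92 (5.43%, 2.34% to 12.1%), in mesoderm and endoderm genes 3 of 43 (6.98%, 2.40% to 18.6%) and in LIF, FGF and Nodal signalling genes 2 of 57 (3.51%, 0.968% to 11.9%). Cell cycle genes had 0 of 46, with an upper bound of 7.71%, and housekeeping genes 1 of 35, next to Gapdh. Each of these intervals of domains held 3.22%. Under 500 bp the same 5 lists had 4 of 34, 4 of 34, 5 of 44, 3 of 25 and 2 of 17 domains closed, with intervals that held the 6.73% of all domains under 500 bp. The difference between these lists and the pluripotency lists was not tested.

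Some domains of neural and RA genes were nonetheless closed. Gli3, a Hedgehog effector, had 2, of 272 and 178 bp, Irx3 had 1 at 262 kb, and Pax6, a neural tube factor, had 1 of 230 bp at an annotated promoter, 42 bp from an iHoxc9 domain. Ebf1, a factor of postmitotic neurons, had 2 in its introns, and the narrower of them abutted an iHoxc6 domain with a gap of 0 bp. Among RA response genes, Cyp26b1, which degrades RA, Dhrs3, which acts on retinaldehyde, and Hoxb1 and Cdx1, early RA targets, had 1 each, 13.5, 1.26, 1.67 and 1.19 kb from the TSS. The Dhrs3 domain lay 42 bp from a no Dox domain, so that a shifted edge could not be set apart there. The Cdx1 domain lay 121 bp from a no Dox domain. T, a mesoderm gene, had a closed domain of 179 bp at 4.35 kb, and its promoter was covered by 1015 bp in EBs, 97 bp in progenitors and 0 bp in each day 4 list. Cdx2, a trophoblast and caudal gene, had a closed domain of 249 bp at its promoter, 331 bp from a no Dox domain and over 4 kb from the other lists.

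A closed domain at a promoter did not always mean a promoter without any opening. Closed domains touched the promoters of 138 genes (0.630% of 21911). At 36 of these (26.1%, 19.5% to 34.0%) no day 4 domain was left in the whole promoter, Zfp42, Fgf4 and Tdgf1 among them. At 60 of the 138 a domain was still present in all 4 day 4 lists elsewhere in the promoter. The promoter joined the surroundings of every annotated TSS of a gene and spanned up to 23857 bp (Phldb1). The remaining domain could therefore lie at another TSS of the gene. These counts were not made for promoters of other genes.

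Promoters of genes nearest to the 705 closed domains away from promoters mostly stayed open. Of these 654 genes, a promoter domain was found for 88.1% in EBs, 84.4% in progenitors, and, at day 4, for 83.3% in the control, 82.6% with Hoxc6, 80.4% with Hoxc9 and 80.1% with Hoxc10. The same shares over all protein-coding genes were 70.3%, 67.6%, 66.5%, 66.9%, 63.9% and 63.5%. For genes nearest to distal kept domains they were 83.1%, 80.4%, 79.0%, 79.7%, 76.1% and 76.0%. For genes nearest to distal partly held domains they were 85.4%, 82.8%, 81.5%, 82.4%, 77.9% and 77.9%. Shares above those of all genes were thus not particular to genes near closed domains. Near closed domains, a domain was present in all 6 lists for 513 genes (78.4%), and in EBs and progenitors but in no day 4 list for 6 (0.917%). These counts were not made for other genes. Which gene a distal domain acts on was not measured, and the nearest gene stands in for it.

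Few genes had several closed domains. Of the 783 genes, 732 had 1, 45 had 2 and 6 had 3. The 6 were Zfp184, Tnr, Nectin1, Irs2, March1 and Got2. Zfp184, which encodes a zinc finger protein, had 3 closed of 12 EB and progenitor domains. These 3 lay between positions 21924739 and 21934325 of chromosome 13. Another group of 3 within 50 kb was made of 2 of these and a closed domain with Hist1h2br as its nearest gene, 48.2 kb from the TSS. Tnr, which encodes an extracellular matrix protein of the nervous system, had 3 of 4, all in introns. Nectin1, an adhesion gene, had 3 of 6, and Irs2, an adaptor of insulin signalling, 3 of 7. March1, a ubiquitin ligase gene, had 3 of 4, of which 2 had central windows wholly within repeats (100% masked). Got2 had 3 of 12 across a wide gene-poor stretch, up to 1393.0 kb from its TSS. Of the 4 genes that came next, Unc13a, which acts in synaptic release, Shisal2a, H2-T3 and Trim71 had 2 each, and the 2 of H2-T3 met the same EB domain of 1033 bp.

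The widest closed domain, of 1265 bp, lay at a promoter of Gnas, an imprinted gene for a G protein subunit, at chr2:174284182-174285446, where the antisense gene Nespas overlaps it. Its EB domain was 592 bp wide, and a no Dox domain lay 110 bp away. The other 9 of the 10 widest were 652 to 892 bp, nearest to Zfp507, Lrg1, Plxna2, Smad2, Fgf10, Csrp2, Foxp2, Gm14496 and Impad1. Of these 9, 8 lay 37.8 kb or more from the TSS and Lrg1 1.74 kb. The EB domains opposite them ranged from 36 bp, at Zfp507 and Csrp2, to 517 bp, at Foxp2, so these progenitor domains were wider than their EB counterparts throughout. Their choice by progenitor width favours this, and over all closed domains the EB domain was the wider in 47.5%. Impad1 was the most isolated, with no day 4 domain within 40.5 kb.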

How the data were processed

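ATAC-seq domains of 12 samples in 6 groups were used. Per the methods, labels and submitters' processing notes, the authors mapped reads to mm10 with Bowtie2 2.2.2, listed Picard 2.8.2 without a stated role, and called domains with DomainFinder on both replicates together, depositing start and end coordinates in bp with no height, count or p-value. The no Dox list carries constant additional columns and a name with another day than its label, which was used here, and calling settings may differ. Starts were read as 0-based, which was not stated, and are printed counting from 1, so positions are uncertain by 1 bp. The members and gene lists were chosen with earlier results of these data known.

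Domains were compared by overlap of 1 bp without merging. TSS came from GENCODE M21, and sequence from GRCm38.p6, the patch release 6 of the build of the lists. Motifs, GC content and soft-masked repeats were read in the central 150 bp. Weighting used 5 GC classes or 4 width classes. Genes were named by a rule: every pluripotency or primed list gene with a closed domain, up to 4 genes of each other list, the 10 genes with most closed domains, and the 10 widest domains. Scripts used Python 3.11.15, NumPy 2.4.6, SciPy 1.17.1, pandas 2.3.3, pysam 0.24.0, samtools 1.23.1 and Matplotlib 3.10.9, and were tested on simulated domains (7 checks, 0 differences). Alternatives are given in the closing section. The sequence of 1 domain is not reported here.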

Additional observations from a re-analysis of the deposited data

How the results depend on the processing

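Of 67 values computed under alternative settings, 45 stayed close to the reported value (counts and the GC difference within 1.5 times, shares within the reported interval) and 22 moved. The closed share of EB and progenitor domains moved in 9 of 10 alternatives. Only the octamer difference (14 alternatives) and the GC difference (11) could change direction, and 0 of them did. No paired analysis was possible because each list pools both replicates, and for the same reason no replicate could be left out. Without a minimum width there were 4162 closed domains, 10.6% of EB and progenitor domains, at 17 pluripotency genes, and with a minimum of 300 bp 201, 1.02% and 4 genes, with an octamer difference of 1.10 points. When EB domains had to cover at least 50% of the progenitor domain, 513 were closed, or 2.56%. With no day 4 domain allowed within 500 bp, the closed share was also 2.56% and the promoter share 11.6%. With day 4 domains under 150 bp ignored, 2529 were closed (9.68%) and the octamer difference was 1.20 points. Without the no Dox list 1262 were closed (4.83%), and the closed share was 4.62% without iHoxc6, 3.52% without iHoxc9 and 3.46% without iHoxc10. The promoter share was 32.3% with 5 kb promoters, the octamer difference 1.19 points over whole domains and the GC difference -2.67 points away from promoters. Read depth, which would limit the narrow domains most, is unknown. The weighting of motif shares to equal width was chosen after seeing the data.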

Other observations

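The closed share of EB and progenitor domains ranged from 2.35% on chromosome 1 to 4.62% on chromosome 9 among the autosomes (68 of 1471 domains, 3.66% to 5.82%). On chromosome X 8 of 604 domains were closed (1.32%, 0.673% to 2.59%), below the 3.22% over all, and on chromosome Y 0 of 39 with an upper bound of 8.97%. The differences between chromosomes were not tested.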
